A study of Mus musculus with 14 samples.

Results

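A set of 10 genes known to be switched on in lipid-laden phagocytes was followed in mouse brain after an intracerebral haemorrhage: Gpnmb, Spp1, Lgals3, Apoe, Cst7, Itgax, Lpl, Clec7a, Axl and Fabp5. They were taken by symbol from the deposited gene table, where all 10 were found among 31507 genes, together with every m6A peak assigned to them. The 14 libraries came from brain tissue and formed 3 groups. The acupuncture group (2 input and 2 IP libraries) was mice with a haemorrhage that were needled at the GV20 point for 7 days. The ICH group (2 input and 2 IP libraries) was mice given autologous blood, a model of intracerebral haemorrhage, and the sham group (3 input and 3 IP libraries) was sham-operated mice. Strain, sex, age, the part of the brain taken and the time of the untreated groups were not given in the labels. Whether replicates came from separate animals is not stated, so p-values measure the spread between these libraries, which may be technical. Input libraries hold unselected poly(A) RNA, and IP libraries hold the fragments pulled down with an antibody against N6-methyladenosine (m6A).

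Macrophages and microglia that have engulfed dying cells and myelin must digest, store and export large amounts of cholesterol and fatty acid. Cells in this state switch on a recurring set of genes, known in the brain from demyelination, neurodegeneration and stroke and, outside it, from foam cells of the arterial wall. The set holds receptors and surface proteins (Gpnmb, Clec7a, Axl, Itgax), secreted proteins that bind cells and matrix (Spp1, Lgals3), a regulator of lysosomal proteases (Cst7) and proteins that carry or split lipid (Apoe, Lpl, Fabp5). Several of them are not confined to phagocytes: astrocytes make much of the brain's Apoe, and neurons and glia also make Lpl and Fabp5. In RNA from whole tissue, more cells of a type and more RNA per cell cannot be told apart.

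The RefSeq table of promoters (build GRCm38.p6, from 250 bases before to 50 bases after each annotated start) held 12 windows of 8 of the genes; Lpl and Fabp5 were named only. Those of Gpnmb, Cst7 and Spp1 are shown because they held a match to a motif searched and the genes were called higher than sham in both comparisons described below, under all 16 alternative settings tried. Lgals3 and Clec7a were called in the same way, but their windows held no match to any motif searched. The other window of Spp1 held none either. Capitals mark a match to the AP-1 motif TGANTCA in Gpnmb and Cst7 and to the PU.1 motif GAGGAAG in Spp1, each searched on both strands. The window of Gpnmb is chr6:49036268-49036567 on the plus strand, that of Cst7 is chr2:150570165-150570464 on the plus strand and that of Spp1 is chr5:104434861-104435160 on the plus strand.
Gpnmb: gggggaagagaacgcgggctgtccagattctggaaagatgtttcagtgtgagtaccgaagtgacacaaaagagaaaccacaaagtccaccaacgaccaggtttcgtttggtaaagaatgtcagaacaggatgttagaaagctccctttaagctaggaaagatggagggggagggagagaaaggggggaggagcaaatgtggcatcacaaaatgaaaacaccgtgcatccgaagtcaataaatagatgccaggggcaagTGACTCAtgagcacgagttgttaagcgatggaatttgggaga
Cst7: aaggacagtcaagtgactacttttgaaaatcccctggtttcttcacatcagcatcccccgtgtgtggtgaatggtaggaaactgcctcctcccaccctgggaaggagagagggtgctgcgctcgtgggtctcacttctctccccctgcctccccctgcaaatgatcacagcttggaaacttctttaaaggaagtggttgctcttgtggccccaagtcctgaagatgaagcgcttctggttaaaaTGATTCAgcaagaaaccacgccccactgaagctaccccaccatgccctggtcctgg
Spp1: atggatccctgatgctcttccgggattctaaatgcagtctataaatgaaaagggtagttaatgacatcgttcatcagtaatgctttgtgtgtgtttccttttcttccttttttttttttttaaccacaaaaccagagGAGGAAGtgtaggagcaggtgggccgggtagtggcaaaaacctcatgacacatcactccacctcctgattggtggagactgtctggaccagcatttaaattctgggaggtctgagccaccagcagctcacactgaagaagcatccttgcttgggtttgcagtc

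The AP-1 letters began 8 bases downstream of the start in Gpnmb and 6 bases upstream of it in Cst7. They also occurred in Itgax, where TGAGTCA began 56 bases upstream, so 3 of the 12 windows, each of a different gene, held them, beside 7.81% of all 32851 windows. The PU.1 letters began 113 bases upstream of the start in Spp1. In Axl they stood on the opposite strand, as CTTCCTC, 131 bases upstream, which made 2 of the 12 windows beside 13.6% of all windows. None of the 12 windows held the E-box CACGTG, which is found in promoters of lysosomal genes and stood in 7.15% of all windows, or the STAT motif TTCNNNGAA, which stood in 8.30%. These matches describe letters, and the files hold no measurement of AP-1 or PU.1 binding.

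Levels are FPKM (fragments per kilobase of transcript, scaled to library size), as the authors deposited them for the 7 input libraries. The columns headed control and EA were read as the sham and acupuncture libraries, since ICH was the only heading that repeated a group's label. Differences are of the mean log2(FPKM + 1), fitted with limma over the 13666 genes whose mean reached 1 FPKM. Calls were made at an adjusted p below 0.05, by the Benjamini-Hochberg method over those genes. Of the 10 genes 9 passed that minimum, and Itgax, with a mean of 0.369 FPKM, did not. Gpnmb, Lgals3, Cst7 and Clec7a averaged below 1 FPKM in sham and passed because of their levels in the other groups. Neither the count of calls among the 9 nor their median difference is therefore an independent sign of a change in the set. The pseudocount makes the difference on this scale smaller than the ratio of the FPKM values for genes of low level. Gene coordinates below are as deposited, with no build named in the sources used here. For 7 of the 8 genes with a RefSeq promoter the deposited start lay within 28 bases of a GRCm38.p6 start, and that of Lgals3 lay 6109 bases from one. The haem oxygenase gene Hmox1, induced by haem, stood at 240 and 249 FPKM in the acupuncture libraries, 144 and 141 FPKM in the ICH libraries and 2.10, 2.67 and 2.08 FPKM in the sham libraries. ICH replicate 2 stood apart from the other libraries, with 23495 genes above 0 beside 24028 to 24746 elsewhere, and its log2 levels correlated with those of ICH replicate 1 at 0.942 across genes, beside 0.976 between the acupuncture libraries and 0.983 to 0.988 among the sham libraries.

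After haemorrhage without needling, 6 of the 9 tested genes rose and none fell, beside 4.95% and 0.724% of all tested genes that were called higher and lower. Cst7, Lgals3, Spp1, Gpnmb and Clec7a rose by 1.80 to 2.45 on the log2 scale and Axl by 0.54, while the lipid carriers and the lipase Apoe, Fabp5 and Lpl did not pass the test. The median difference of the 9 genes was 1.80, beside -0.0061 over all tested genes. In 8 of the 10 genes, Itgax and Lpl among them, both ICH libraries stood above all 3 sham libraries, as did 21.5% of all tested genes, and in 0 of the 10 did both stand below, as 18.8% of all tested genes did.

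Gpnmb (chr6:49036546-49070929, plus strand), a transmembrane glycoprotein of macrophage lysosomes, had 2.75 and 4.66 FPKM in the acupuncture libraries, 3.37 and 5.62 FPKM in the ICH libraries and 0.363, 0.497 and 0.388 FPKM in the sham libraries. All 4 haemorrhage libraries were above the sham libraries, and the acupuncture and ICH values overlapped. Its level rose by 1.93 ± 0.23 (SE, adjusted p = 0.00404) in ICH against sham and by 1.70 ± 0.23 (SE, adjusted p = 0.00421) in acupuncture against sham.

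Clec7a (chr6:129461591-129472779, minus strand), which encodes dectin-1, a receptor for beta-glucans and an activation marker of microglia, had 1.66 and 3.30 FPKM in the acupuncture libraries, 2.31 and 3.68 FPKM in the ICH libraries and 0.0844, 0.157 and 0.142 FPKM in the sham libraries. It was close to absent in sham, and its libraries within each haemorrhage group differed by 1.99-fold in acupuncture and 1.59-fold in ICH. It rose by 1.80 ± 0.23 (SE, adjusted p = 0.00578) in ICH against sham and by 1.58 ± 0.23 (SE, adjusted p = 0.00616) in acupuncture against sham.

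Axl (chr7:25757273-25788705, minus strand), a receptor tyrosine kinase that binds Gas6 bridged to dying cells, had 12.1 and 12.5 FPKM in the acupuncture libraries, 12.3 and 9.71 FPKM in the ICH libraries and 6.92, 7.03 and 7.60 FPKM in the sham libraries. The haemorrhage libraries all lay above sham, by 1.53-fold in the mean of ICH and 1.71-fold in that of acupuncture. It rose by 0.54 ± 0.11 (SE, adjusted p = 0.0416) in ICH against sham and by 0.70 ± 0.11 (SE, adjusted p = 0.00938) in acupuncture against sham. The call in ICH was lost without any 1 of the sham libraries (adjusted p between 0.118 and 0.172) or either acupuncture library (0.0836 and 0.0839), and also without a minimum level (0.0757) or in a fit of the ICH and sham libraries alone (0.0836). That in acupuncture was lost without sham replicate 1 (0.0504) or either acupuncture library (0.0613 and 0.0757).

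Itgax (chr7:128129547-128150657, plus strand), the alpha chain of the integrin CD11c, had 0.332 and 0.466 FPKM in the acupuncture libraries, 0.526 and 1.07 FPKM in the ICH libraries and 0.0352, 0.0854 and 0.0674 FPKM in the sham libraries. It had the lowest level of the 10 genes in both haemorrhage groups, and every haemorrhage library exceeded every sham library. With a minimum mean of 0.1 FPKM it differed by 0.74 in ICH against sham (adjusted p = 0.0314) and by 0.40 in acupuncture against sham (adjusted p = 0.143). With no minimum the adjusted p in ICH against sham was 0.0664.

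Spp1 (chr5:104435118-104441050, plus strand), which encodes osteopontin, a secreted ligand of integrins and CD44, had 31.1 and 29.5 FPKM in the acupuncture libraries, 21.7 and 22.2 FPKM in the ICH libraries and 5.17, 3.23 and 4.86 FPKM in the sham libraries. The 3 groups did not overlap, and Spp1 had the highest level after Apoe in both haemorrhage groups, where its values overlapped those of Fabp5 in acupuncture and in ICH. It rose by 2.10 ± 0.17 (SE, adjusted p = 8.66e-04) in ICH against sham and by 2.55 ± 0.17 (SE, adjusted p = 2.15e-04) in acupuncture against sham. Gm42793, a gene model on the same strand, overlaps Spp1, so that reads there may be assigned to either.

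Lgals3 (chr14:47367751-47386160, plus strand), which encodes galectin-3, a lectin that gathers on damaged lysosomes, had 14.0 and 13.6 FPKM in the acupuncture libraries, 7.99 and 10.9 FPKM in the ICH libraries and 1.15, 0.818 and 0.737 FPKM in the sham libraries. Here too the groups were separate, with acupuncture highest. The rise was 2.45 ± 0.15 (SE, adjusted p = 3.85e-04) in ICH against sham and 2.97 ± 0.15 (SE, adjusted p = 8.42e-05) in acupuncture against sham, which made it the gene with the largest difference of the 9 in both comparisons on this scale. With a pseudocount of 0.1 in place of 1 the largest was that of Cst7, at 5.21 in ICH and 5.41 in acupuncture against sham.

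Cst7 (chr2:150570415-150578944, plus strand), which encodes cystatin F, an inhibitor of lysosomal cathepsins such as cathepsin C, had 4.76 and 4.60 FPKM in the acupuncture libraries, 3.59 and 4.57 FPKM in the ICH libraries and 0, 0.0418 and 0 FPKM in the sham libraries. It was listed at 0 in 2 of the 3 sham libraries, so no ratio to sham is given. It rose by 2.32 ± 0.12 (SE, adjusted p = 2.00e-04) in ICH against sham and by 2.49 ± 0.12 (SE, adjusted p = 6.58e-05) in acupuncture against sham.

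Apoe (chr7:19696109-19699188, minus strand), the main apolipoprotein of the brain, had 567 and 621 FPKM in the acupuncture libraries, 489 and 435 FPKM in the ICH libraries and 479, 439 and 481 FPKM in the sham libraries. It had the highest level of the 10 genes in every group, and the ICH values lay on both sides of the sham values. The difference was -0.015 with a 95% confidence interval of -0.30 to 0.27 in ICH against sham (adjusted p = 0.947). In acupuncture against sham it was 0.35 with an interval of 0.062 to 0.63 (adjusted p = 0.124), and both acupuncture libraries stood above all the others. In a fit of the acupuncture and sham libraries alone, that difference passed the test (adjusted p = 0.0239). The ICH libraries enter the spread but not this difference, so it stayed at 0.35 by design without ICH replicate 1 or ICH replicate 2. With quantile normalization it was 0.054 and did not pass, and the difference between acupuncture and ICH was 0.10 beside 0.36.

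Fabp5 (chr3:10012548-10016607, plus strand), a carrier of fatty acids inside the cell, had 35.0 and 24.8 FPKM in the acupuncture libraries, 25.9 and 12.1 FPKM in the ICH libraries and 17.3, 16.8 and 19.0 FPKM in the sham libraries. The ICH libraries lay on either side of sham, and ICH replicate 2 held the lowest value of all 7. The difference was 0.0017 (95% confidence interval -0.70 to 0.70, adjusted p = 0.997) in ICH against sham and 0.70 (0.0025 to 1.41, adjusted p = 0.195) in acupuncture against sham. As with Apoe, the second difference passed in a fit of the acupuncture and sham libraries alone (adjusted p = 0.0200). For the same reason as with Apoe, that difference stayed at 0.70 by design without ICH replicate 1 or ICH replicate 2. RefSeq also lists a pseudogene of Fabp5, Fabp5l2, which may share reads with it.

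Lpl (chr8:68880491-68907448, plus strand), the lipase that releases fatty acids from lipoproteins, had 2.05 and 1.39 FPKM in the acupuncture libraries, 2.77 and 2.36 FPKM in the ICH libraries and 2.21, 2.24 and 2.07 FPKM in the sham libraries. Both ICH values were above sham and both acupuncture values below it, with 1.39 FPKM in acupuncture replicate 2 farthest from it. Neither difference passed the test: 0.17 (95% confidence interval -0.15 to 0.48, adjusted p = 0.466) in ICH against sham and -0.23 (-0.55 to 0.078, adjusted p = 0.328) in acupuncture against sham.

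**Figure D1:**
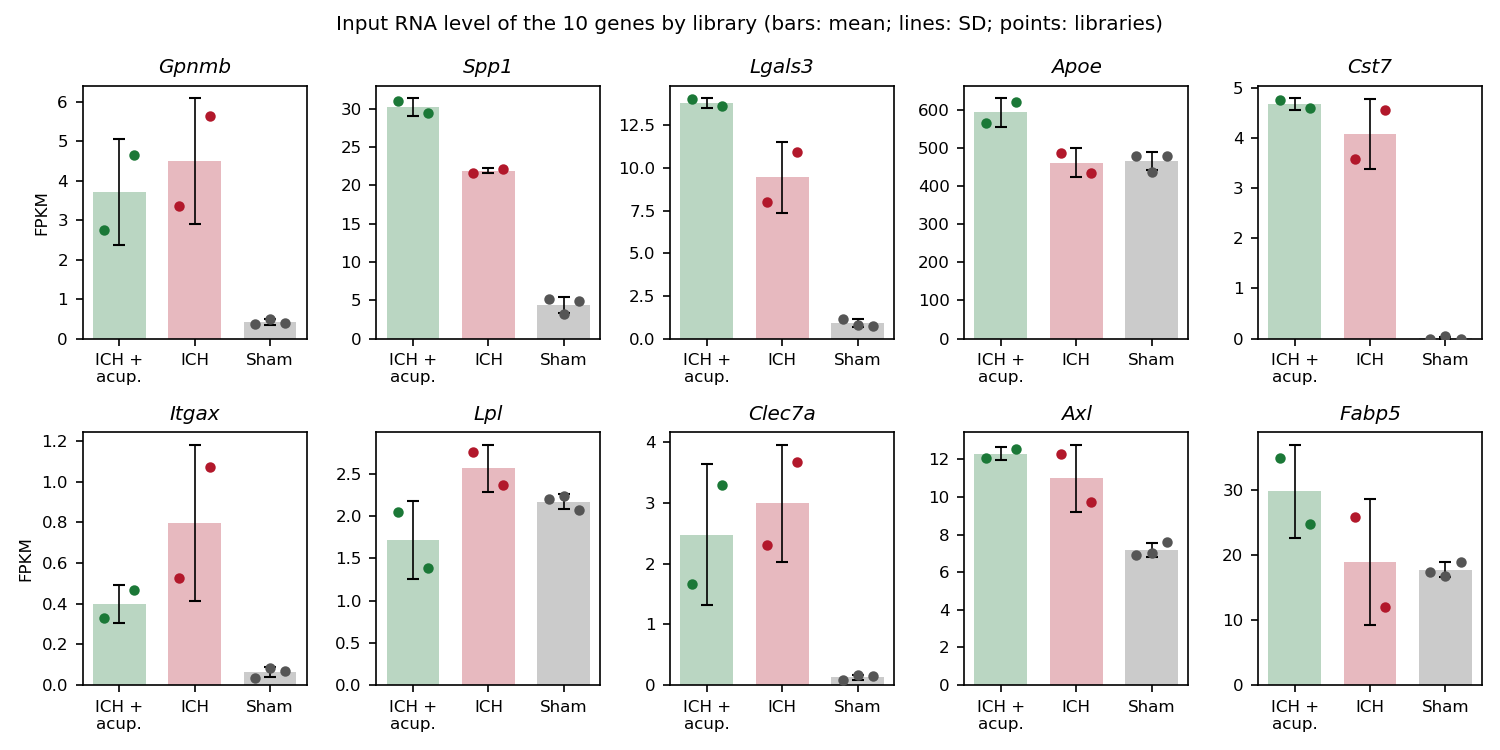
Level of each of the 10 genes in FPKM on a linear axis from 0, by group, in the 7 input libraries, with bars for the mean, lines for the SD and points for libraries (n = 2, 2 and 3). Cst7 has 4.60 to 4.76 FPKM in acupuncture and 3.59 to 4.57 FPKM in ICH and is at or near 0 in sham, while the ICH bar of Apoe is level with its sham bar.

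In acupuncture against sham the same number, 6 of the 9, was called higher and 0 lower, beside 8.47% and 3.22% of all tested genes. Those called were Gpnmb, Spp1, Lgals3, Cst7, Clec7a and Axl. The median difference of the 9 genes was 1.58, beside 0.037 over all tested genes. In 9 of the 10 genes, all but Lpl, both acupuncture libraries lay above every sham library, as in 31.8% of all tested genes. Lpl was the 1 gene with both below every sham library, as in 23.4% of all tested genes. The ICH and acupuncture comparisons share the 3 sham libraries, so that their likeness is no independent evidence.

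Between acupuncture and ICH none of the 9 genes passed the test with limma, in which 5 of all tested genes (0.0366%) were called higher and 0 lower. At an unadjusted p under 0.05, 4 of the 9 genes and 2754 of all tested genes differed. These were Lgals3, at 0.52 higher with acupuncture (95% confidence interval 0.13 to 0.91, adjusted p = 0.206), Spp1, at 0.45 (0.015 to 0.88, adjusted p = 0.240), Apoe, at 0.36 (0.050 to 0.68, adjusted p = 0.222), and Lpl, at -0.40 (-0.74 to -0.058, adjusted p = 0.221). The values of Lgals3, Spp1, Apoe and Cst7 did not overlap, with acupuncture higher, as in 28.8% of all tested genes, and those of Lpl and Itgax did not overlap, with acupuncture lower, as in 20.7%. With a minimum mean of 0.1 FPKM, Itgax differed by -0.35 (-0.71 to 0.013, adjusted p = 0.313). For Gpnmb and Clec7a the groups overlapped, with differences of -0.22 for both and intervals from -0.82 to 0.37 and from -0.83 to 0.39. Without ICH replicate 1, which leaves the deviating ICH replicate 2 alone in its group and assumes that it varies like the other groups, 5105 genes were called. Fabp5 then differed by 1.22 (adjusted p = 0.00662), Apoe by 0.45 (adjusted p = 0.0193) and Axl by 0.31 (adjusted p = 0.0398).

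**Figure D2:**
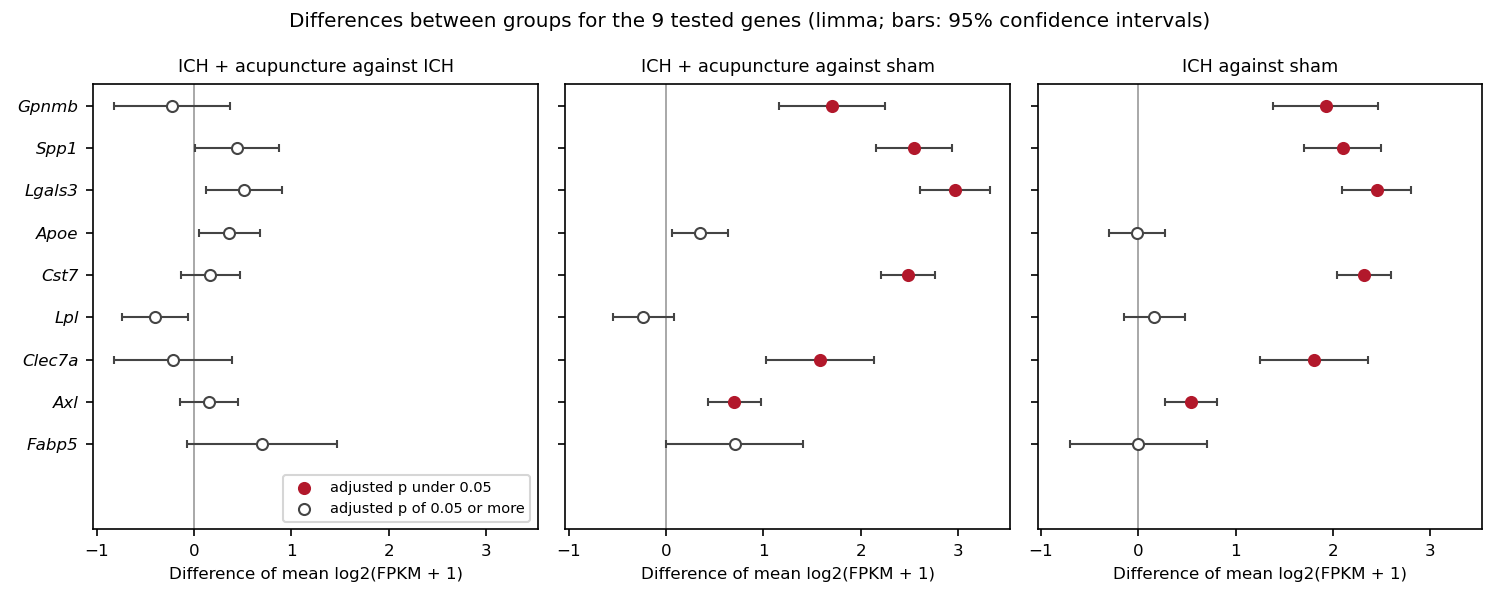
Difference of the mean log2(FPKM + 1) on the x axis for the 9 tested genes, in acupuncture against ICH, acupuncture against sham and ICH against sham, with 95% confidence intervals from limma and filled points for an adjusted p under 0.05. Lgals3, Cst7 and Spp1 lie above 2 in both comparisons with sham, and no gene is filled in acupuncture against ICH.

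The order of the mean levels differed between the groups. In acupuncture it ran Apoe, Spp1, Fabp5, Lgals3, Axl, Cst7, Gpnmb, Clec7a, Lpl, Itgax, and in ICH it ran Apoe, Spp1, Fabp5, Axl, Lgals3, Gpnmb, Cst7, Clec7a, Lpl, Itgax. In sham it was Apoe, Fabp5, Axl, Spp1, Lpl, Lgals3, Gpnmb, Clec7a, Itgax, Cst7. Lpl was the fifth in sham and the ninth in both haemorrhage groups, with little change in its own level. Neighbours whose libraries overlapped were Spp1 with Fabp5, Cst7 with Gpnmb, Gpnmb with Clec7a and Clec7a with Lpl in acupuncture. In ICH these were Spp1 with Fabp5, Fabp5 with Axl, Axl with Lgals3, Gpnmb with Cst7, Cst7 with Clec7a and Clec7a with Lpl, and in sham they were Clec7a with Itgax and Itgax with Cst7.

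For each of the 10 genes the tested gene with the most similar profile over the 7 libraries was sought among 12085 named genes, by the root mean square difference of log2(FPKM + 1) after centring. Gpnmb and Clec7a both lay closest to Ly9, a surface receptor of leukocytes (0.131 and 0.0977). Lgals3 lay closest to Cxcl16, a chemokine that also acts as a scavenger receptor (0.103), Spp1 to Slc11a1, a metal transporter of phagosomes (0.154), and Cst7 to Itgb2, the beta chain of the leukocyte integrins (0.0942). Apoe lay closest to the integrin Itga7 (0.0400), Itgax to the lysosomal transporter Slc46a3 (0.0394), Axl to Scamp2, a protein of secretory vesicles (0.0447), and Lpl to the potassium channel Kcnc4 (0.0360). Fabp5 lay closest to Rps2, a protein of the small ribosomal subunit (0.110), which averaged 124 FPKM in acupuncture, 81.2 FPKM in ICH and 84.3 FPKM in sham. Genes with little change in level have small differences from many others, so the values are not comparable between genes with large and small changes.

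Other genes of the phagocyte programme were read from 5 lists that leave out the 10 genes and share some genes with each other. In the order given here, 3, 4, 0, 5 and 4 of their tested genes averaged below 1 FPKM in sham and passed the minimum through the haemorrhage groups, so that the counts of calls and medians are partly set by that minimum. Of 22 phagocyte genes, all tested, 19 were called higher and 0 lower in acupuncture against sham and 13 and 0 in ICH against sham, with median differences of 1.25 and 0.99. Lyz2, the lysozyme of macrophages, rose by 4.78 ± 0.21 with acupuncture and 4.06 ± 0.21 in ICH (SE, adjusted p = 5.44e-05 and 2.10e-04). Ch25h, which makes 25-hydroxycholesterol, rose by 3.06 ± 0.13 and 2.29 ± 0.13 (adjusted p = 4.45e-05 and 2.98e-04). Tyrobp, the adaptor of Trem2, rose by 2.48 ± 0.14 and 2.04 ± 0.14 (adjusted p = 1.12e-04 and 4.66e-04), and cathepsin Z (Ctsz) by 2.55 ± 0.13 and 1.93 ± 0.13 (adjusted p = 8.08e-05 and 4.48e-04), each in acupuncture and in ICH against sham.

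Of 20 genes of lipid uptake and efflux 16 were tested, of which 6 were called higher and 2 lower in acupuncture against sham and 7 and 0 in ICH against sham, with medians of 0.24 and 0.23. Trem2, the lipid receptor of microglia, rose by 1.30 ± 0.13 with acupuncture and by 1.18 ± 0.13 in ICH (SE, adjusted p = 0.00139 and 0.00325). The scavenger receptor Msr1 rose by 2.28 ± 0.14 and 1.64 ± 0.14 (adjusted p = 1.85e-04 and 0.00126). The cholesterol exporter Abca1 rose by 1.18 ± 0.13 with acupuncture and by 1.30 ± 0.13 in ICH (adjusted p = 0.00160 and 0.00176). Apoc2, the cofactor of lipoprotein lipase, had 6.73 and 5.62 FPKM in acupuncture and 3.76 and 5.20 FPKM in ICH and was listed at 0 in all 3 sham libraries. Its neighbour Apoe and the lipase it serves, Lpl, did not pass the test in either comparison.

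Of 17 genes of the lysosome and its MiT/TFE regulators 16 were tested, with 8 called higher in acupuncture and 5 in ICH against sham, 0 lower in both, and medians of 0.54 and 0.31. Progranulin (Grn) rose by 2.26 ± 0.09 and 2.00 ± 0.09 in acupuncture and in ICH (SE, adjusted p = 3.41e-05 and 1.04e-04), and cathepsin C (Ctsc), a target of cystatin F, by 2.58 ± 0.14 and 2.23 ± 0.14 (adjusted p = 1.06e-04 and 3.85e-04). Lipa, the acid lipase of the lysosome, rose by 1.04 ± 0.14 and 1.02 ± 0.14 (adjusted p = 0.00414 and 0.00731).

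Of 21 genes listed as partners of the 10 proteins, not all of which bind them, 17 were tested. Of these, 11 were called higher in acupuncture and 8 in ICH against sham and 0 lower in both, with medians of 1.07 and 0.77. Itgb2, the partner chain of Itgax, rose by 2.45 ± 0.15 with acupuncture and 2.34 ± 0.15 in ICH (SE, adjusted p = 1.41e-04 and 3.85e-04). Pros1, which encodes the bridging ligand protein S, rose by 1.50 ± 0.12 and 1.25 ± 0.12 (adjusted p = 5.71e-04 and 0.00185), and Lgals3bp, a ligand of galectin-3, rose by 2.65 ± 0.25 in ICH (adjusted p = 0.00151). Lgals3bp averaged 36.5 FPKM in acupuncture, 40.4 FPKM in ICH and 5.49 FPKM in sham. The ligand of Axl, Gas6, and the sister receptors Mertk and Tyro3 were added to the named genes after their values were seen. Gas6 differed by -0.055 with acupuncture and -0.016 in ICH, Mertk by 0.31 and 0.43 and Tyro3 by -0.30 and -0.70, and the smallest adjusted p of these was 0.117. Without ICH replicate 1, Mertk (0.52, adjusted p = 0.0315) and Tyro3 (-1.07, adjusted p = 0.00127) were called in ICH against sham, and Tyro3 was also called in acupuncture against sham without either ICH library (adjusted p = 0.0415 and 0.0412).

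Of 24 genes from the families of the 10 genes 15 were tested, with 9 called higher in acupuncture and 8 in ICH against sham, 0 lower in both, and medians of 1.28 and 0.88. The galectin Lgals1 rose by 3.13 ± 0.20 and 2.57 ± 0.20 in acupuncture and in ICH (SE, adjusted p = 2.15e-04 and 8.66e-04), and the galectin Lgals9 by 2.47 ± 0.27 in ICH (adjusted p = 0.00293). Clec4n, which encodes the C-type lectin dectin-2, rose by 2.70 ± 0.12 and 2.09 ± 0.12 (adjusted p = 4.45e-05 and 2.57e-04), and the cystatin Cstb by 1.52 ± 0.14 with acupuncture (adjusted p = 0.00104). Lgals9 averaged 16.5 FPKM in acupuncture, 16.7 FPKM in ICH and 2.09 FPKM in sham, and Cstb 59.5, 33.3 and 19.9 FPKM. In none of the 5 lists was a gene called between acupuncture and ICH. The smallest p among their genes there were those of the acid phosphatase Acp5, at 1.09 (adjusted p = 0.149), Ch25h, at 0.78 (0.158), Angptl4, an inhibitor of lipoprotein lipase, at 0.66 (0.158), and Cstb, at 0.80 (0.163).

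Markers of cells that could carry these genes moved with the groups, and their part in the results was not tested. The 12 markers of blood-borne or border macrophages and monocytes, none at 0 throughout, summed to 51.6 to 56.1 FPKM in acupuncture, 35.1 to 35.7 FPKM in ICH and 4.57 to 5.38 FPKM in sham. A large part was Adgre1, which averaged 18.6 FPKM in acupuncture, 13.7 FPKM in ICH and 1.36 FPKM in sham. Cd14 averaged 8.58, 4.78 and 1.22 FPKM in the same groups. Ccr2 (0.673 and 0.694 FPKM), Ly6c2 (1.20 and 1.21), Mrc1 (1.16 and 1.41) and Plac8 (0.678 and 0.989) averaged lower in acupuncture than in ICH. The other markers of the list averaged higher in acupuncture. Whether blood-borne cells, border cells or microglia made these RNAs was not tested. Only 5 of the 12 were tested, of which Pf4, F13a1 and Chil3 passed the minimum through the haemorrhage groups, so the count of calls, 5 in acupuncture and 4 in ICH against sham, is partly set by that minimum. The smallest p was that of Adgre1, at 3.05 ± 0.09 and 2.64 ± 0.09 (SE, adjusted p = 1.64e-05 and 4.20e-05). The 12 markers of homeostatic microglia summed to 196 to 228 FPKM in acupuncture, 239 to 272 FPKM in ICH and 102 to 114 FPKM in sham, with 6 called higher and 2 lower in acupuncture and 8 and 0 in ICH. Csf1r rose by 1.12 ± 0.11 and 1.26 ± 0.11 in acupuncture and in ICH against sham (SE, adjusted p = 0.00136 in both), and Siglech fell by 1.21 ± 0.16 in acupuncture against sham (adjusted p = 0.00398). The 8 neutrophil markers summed to 57.4 to 85.1 FPKM in acupuncture, 21.5 to 22.9 FPKM in ICH and 9.18 to 12.2 FPKM in sham, and 3 of 3 and 1 of 3 tested were called higher than in sham. Of the 8 markers, Mpo was listed at 0 in acupuncture and ICH and Ly6g in ICH and sham. Most of the acupuncture sum, which averaged 71.3 FPKM, was S100a8 and S100a9, at 25.0 and 35.6 FPKM. Ngp went the other way, at 0.309 FPKM in acupuncture, 0.385 FPKM in ICH and 0.568 FPKM in sham. Retnlg averaged 1.08, 0.195 and 0.409 FPKM in the same groups, so the sums are no measure of neutrophil content. The 10 dendritic cell markers, several of which macrophages also express, summed to 14.2 to 21.5 FPKM in acupuncture, 18.0 to 38.0 FPKM in ICH and 4.92 to 6.12 FPKM in sham, with 2 and 3 of 4 tested called higher, of which H2-Aa and H2-Ab1 passed the minimum in the same way, and Xcr1 at 0 in acupuncture and sham.

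Among the brain's own cells, the 9 astrocyte markers summed to 713 to 870 FPKM in acupuncture, 810 to 894 FPKM in ICH and 378 to 409 FPKM in sham, with 3 and 2 called higher than in sham. Most of the difference between these sums was that of Gfap alone. It averaged 407 FPKM in acupuncture, 366 FPKM in ICH and 26.2 FPKM in sham, so the sums are no measure of astrocyte content. The 8 oligodendrocyte markers summed to 581 to 911 FPKM in acupuncture, 874 to 913 FPKM in ICH and 1068 to 1366 FPKM in sham, with 3 called lower in acupuncture and 0 in ICH. The 9 neuronal markers summed to 1016 to 1037 FPKM in acupuncture, 1014 to 1239 FPKM in ICH and 1039 to 1141 FPKM in sham, with 0 called. The 7 endothelial markers summed to 111 to 120 FPKM in acupuncture, 65.9 to 80.2 FPKM in ICH and 52.6 to 57.3 FPKM in sham, with 5 and 2 called higher than in sham.

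**Figure D3:**
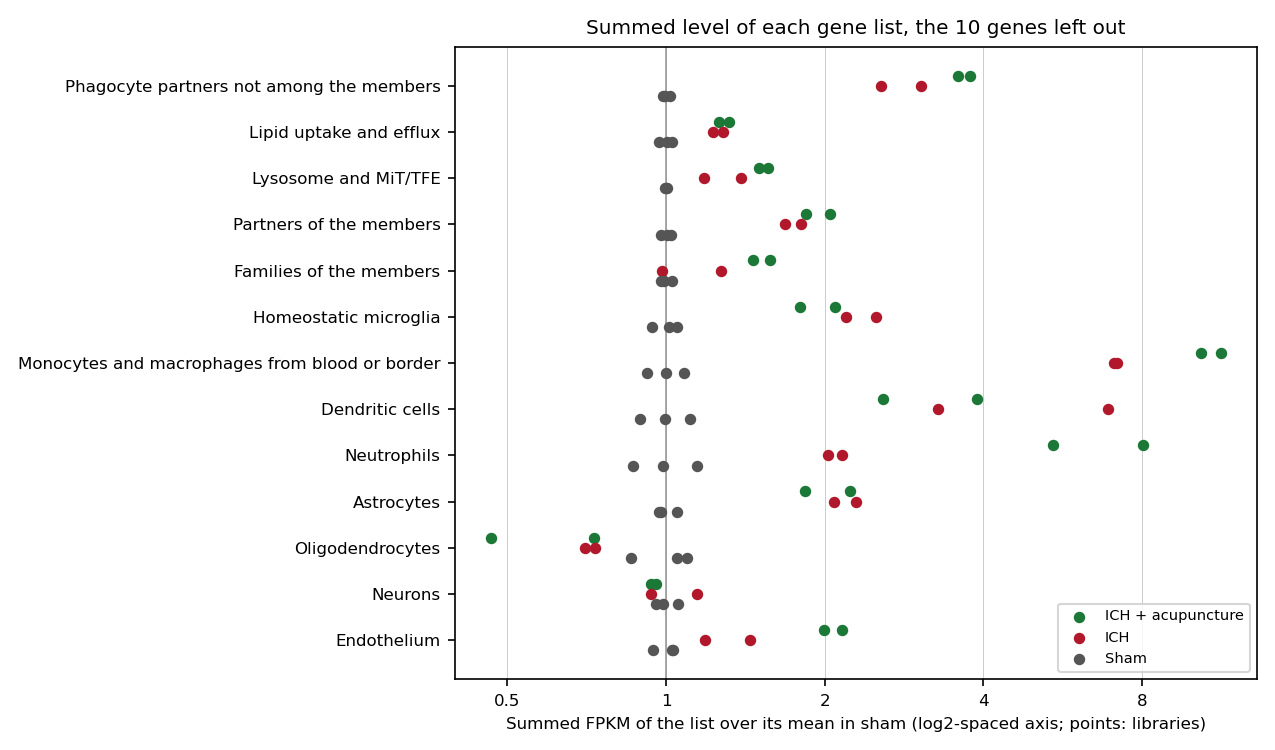
Summed FPKM of each gene list in each input library over the mean of that sum in sham, on a log2-spaced x axis, with the 10 genes left out of every list. The monocyte and macrophage markers reach 10.8 times sham in the acupuncture mean and 7.12 times in the ICH mean, the homeostatic microglia markers 1.95 and 2.35 times.

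The m6A peaks were listed by the authors once for each group, as the log2 of IP over input, so no replicate test is possible. All 10 genes had a peak in the acupuncture and ICH lists and 6 in the sham list, where Lgals3, Cst7, Itgax and Clec7a had none. Of all tested genes 94% had a peak in the acupuncture list, 94.3% in the ICH list and 93.6% in the sham list. Among genes above 0 and under 1 FPKM in sham, 29.3% had a sham peak, and the 4 genes without one were all at such levels on average. Gpnmb, at 0.363 to 0.497 FPKM in sham, had 3 sham peaks. The lists held 18 peaks of these genes in acupuncture, 22 in ICH and 16 in sham, which fell into 27 regions, 10 of them found in all 3 lists. Of the peaks 77.8%, 68.2% and 62.5% were annotated to a 3' UTR in acupuncture, ICH and sham, beside 54.7%, 52.3% and 54.5% of all peaks in those lists.

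The strongest 3' UTR peak of Gpnmb had a log2 IP over input of 1.68 in the acupuncture list, 2.45 in the ICH list and 1.08 in the sham list, where a different region led. The region that led in acupuncture and ICH had 1.02 in sham. Although annotated to a 3' UTR, the leading peaks lay 13973 bases (acupuncture and ICH) and 26814 bases (sham) before the deposited 3' end of Gpnmb. The strongest 3' UTR peak of Fabp5 had 1.59 in acupuncture, 2.17 in ICH and 1.31 in sham. That of Apoe had 1.40 in acupuncture, 1.75 in ICH and 1.17 in sham, that of Spp1 1.26 in acupuncture, 1.54 in ICH and 0.98 in sham, and that of Axl 1.05 in acupuncture, 1.37 in ICH and 0.93 in sham. In these 5 genes ICH was highest and sham lowest, which is also the order of the medians of all listed peaks, at 1.12 in acupuncture, 1.24 in ICH and 1.07 in sham. Lpl went the other way, with 2.55 in acupuncture, 1.96 in ICH and 2.65 in sham. Among the genes without a sham peak, Lgals3 had 1.13 in acupuncture and 1.47 in ICH, Cst7 1.41 and 1.44, Itgax 1.70 and 1.36 and Clec7a 0.99 and 1.12.

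**Figure D4:**
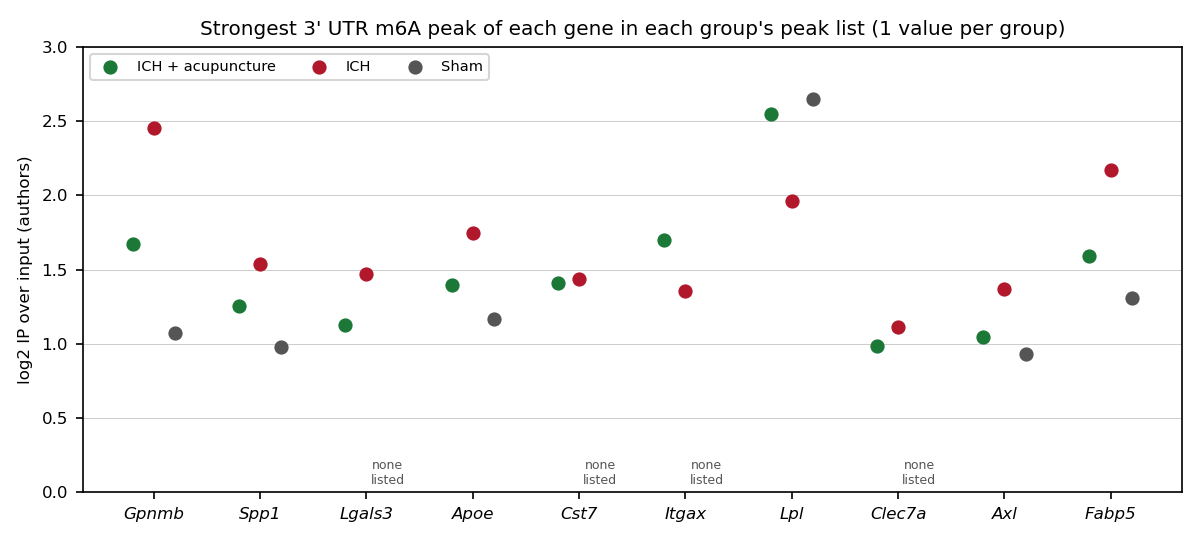
The authors' log2 IP over input of the strongest 3' UTR peak of each gene in the acupuncture, ICH and sham peak lists, with 1 value per group and no error. Lpl is lowest in ICH, at 1.96, whereas Gpnmb, Spp1, Apoe, Axl and Fabp5 are highest there, and 4 genes have no sham peak.

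The authors' deposited tables of differential peaks hold values computed for each pair of groups. In ICH against sham, the authors' deposited table listed 11 peaks of 7 of the genes, 9 higher and 2 lower, beside 78.7% higher among all listed peaks, with a median difference of 0.58 beside 0.56 over all. In the authors' deposited table the 3' UTR peak of Gpnmb (chr6:49056381-49056956, as deposited, plus strand) was higher by 1.25 in ICH, at 2.39 against 1.14 in sham (authors' adjusted p = 7.47e-05). There the 3' UTR peak of Lgals3 was higher by 1.04 and that of Fabp5 by 0.83, that of Spp1 by 0.68, the strongest of Apoe by 0.58 and that of Axl by 0.36 in the authors' deposited table. Lgals3 had no peak in the sham list, and its sham value was 0.28. Both lower peaks belonged to Lpl: in the authors' deposited table its main 3' UTR peak (chr8:68904722-68906297 in the sham list, plus strand) had 1.76 in ICH and 2.77 in sham, a difference of -1.01 (authors' adjusted p = 4.24e-31), and its 5' UTR peak had -0.038 in ICH and 1.82 in sham (authors' adjusted p = 0.0370).

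In acupuncture against ICH, the authors' deposited table listed 13 peaks of 7 of the genes, 1 higher and 12 lower, beside 18.7% higher among all listed peaks, with medians of -0.46 both for these genes and over all. The 1 higher peak was again the main 3' UTR peak of Lpl, at 2.56 in acupuncture and 1.91 in ICH in the authors' deposited table, a difference of 0.65 (authors' adjusted p = 1.90e-09). The other Lpl 3' UTR peak was lower by 0.46 in the authors' deposited table, with an authors' adjusted p of 0.0506. That of Gpnmb was lower by 0.90, at 1.61 in acupuncture and 2.51 in ICH in the authors' deposited table (authors' adjusted p = 2.43e-07), and the 5' UTR peak of Lgals3 by 0.94 (authors' adjusted p = 3.87e-05).

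In acupuncture against sham, the authors' deposited table listed 8 peaks of 6 of the genes, 4 higher and 4 lower, beside 58.2% higher among all listed peaks, with a median of -0.13 beside 0.24 over all. The 3' UTR peak of Lgals3 was higher by 0.77, that of Fabp5 by 0.29 and the strongest of Apoe by 0.22 in the authors' deposited table, whereas the main 3' UTR peak of Lpl was lower by 0.36 (authors' adjusted p = 0.00108). An exonic peak of Gpnmb was lower by 1.14, at 0.25 in acupuncture and 1.39 in sham in the authors' deposited table (authors' adjusted p = 0.0308), and a 5' UTR peak of Fabp5 by 0.99 (authors' adjusted p = 0.0833). A lower value was also listed for Cst7, at 1.37 in acupuncture and 4.11 in sham in the authors' deposited table (authors' adjusted p = 0.151), although Cst7 was at or near 0 FPKM in sham input and had no peak in the sham list. Some of the differential peaks named were not in the peak lists of both groups compared. The 3' UTR peak of Lgals3 was not in the sham list, and the 5' UTR peak of Lpl was not in the ICH list. Neither the exonic peak of Gpnmb nor the 5' UTR peak of Fabp5 was in the acupuncture list. The sources do not say which samples entered these tables, and the comparisons share groups.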

How the data were processed

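Poly(A) RNA of 7 input and 7 m6A IP libraries was sequenced with a strand-specific protocol, per the labels' protocols. The submitters' processing notes list edgeR, HOMER, StringTie, HISAT2 and fastp, with no version or role, and the human builds GRCh38 and hg38. The deposited files, however, hold mouse Ensembl identifiers. No source used here names the program that called peaks. The authors deposited gene levels as FPKM, per the file headers. A further 2 FPKM columns, headed as additional ICH and EA libraries, matched no sample and were not used. The sham and acupuncture libraries were matched to columns headed with other names by elimination. The authors' peak lists give a log2 IP over input per peak and group, and their differential tables give log2 values for 2 groups and the difference, each with the authors' p-value and adjusted p-value. These were described, not tested again.

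The 10 genes and the gene lists were chosen with earlier results of these data known. FPKM was tested as log2(FPKM + 1) for genes whose mean reached 1 FPKM, with 1 mean per group over the 7 libraries, in limma 3.58.1 (R 4.3.3, moderated variance with a trend, two-sided), and p-values were adjusted by Benjamini-Hochberg over 13666 genes. The fit was tested on simulated data. Genes named from the lists were up to 4 per list and comparison with the smallest p. Peaks sharing at least 1 base on a strand formed a region. Read counts were not part of the tables used, so sequencing depth, and the precision that follows from it, is unknown. Alternatives changed the pseudocount, filter, scaling, variance model, replicate block, libraries in the fit and peak thresholds. The labels do not say that replicate numbers pair libraries, so the numbers were not used as pairs. Deviations of same-numbered libraries of different groups from their group means had correlations of -0.015 to 0.094 across genes, which cannot exclude pairing. Tables and figures used Python 3.11.15, numpy 2.4.6, pandas 2.3.3 and matplotlib 3.10.9.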

Additional observations from a re-analysis of the deposited data

How the results depend on the processing

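Of the 9 tested genes, Gpnmb, Spp1, Lgals3, Cst7 and Clec7a were called higher than sham in both comparisons under all 16 alternatives, 7 of which leave out 1 library. The number of the genes called ranged from 5 to 6 over the left-out libraries in ICH against sham, from 5 to 8 in acupuncture against sham and from 0 to 3 in acupuncture against ICH, with 3 without ICH replicate 1. Over all tested genes, leaving out 1 library gave 387 to 5212 calls beside 776 in ICH against sham, 805 to 3215 beside 1598 in acupuncture against sham and 2 to 5105 beside 5 in acupuncture against ICH. The counts of 5212 and 5105 came without ICH replicate 1. The replicate block gave 351, 750 and 3 calls in these comparisons and 5, 5 and 0 among the genes, and a fit of only the 2 groups compared gave 3207 in acupuncture against sham and 2 in acupuncture against ICH. Under that block Axl was no longer called (0.58, adjusted p = 0.167, in ICH and 0.74, adjusted p = 0.0587, in acupuncture, each against sham). In acupuncture against sham, quantile normalization split the calls into 923 higher and 721 lower, beside 1158 and 440. Calls in the gene lists ranged from 40 to 88 beside 57 in ICH against sham and from 0 to 60 beside 0 in acupuncture against ICH. Signs changed in differences that did not pass the test. In ICH against sham, Apoe was 0.0018 with upper quartile scaling and 0.0075 with the replicate block, Fabp5 was -0.0032 with a pseudocount of 0.1 and -9.09e-04 with one of 0.5, and Gas6 was 0.018 with quantile normalization. Over the left-out libraries these ranged from -0.099 to 0.068 for Apoe, -0.52 to 0.52 for Fabp5 and -0.19 to 0.15 for Gas6. Gas6 ranged from -0.31 to 0.20 in acupuncture against sham and from -0.30 to 0.22 in acupuncture against ICH, where Gpnmb ranged from -0.52 to 0.077 and Clec7a from -0.57 to 0.13. At a log2 IP over input of at least 1, the peak counts were 11 in acupuncture, beside 18, and 8 in sham, beside 16. The causes of these shifts were not tested. The limits are 2 libraries in each haemorrhage group, unknown depth, 1 peak value per group and no build or tissue region in the labels.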

Other observations

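Within the haemorrhage groups the 10 genes did not vary alike. Replicate 2 exceeded replicate 1 for Gpnmb, by 1.69-fold in acupuncture and 1.67-fold in ICH, for Clec7a, by 1.99-fold and 1.59-fold, and for Itgax, by 1.40-fold and 2.04-fold in the same groups. For Fabp5 the ratio of replicate 2 to replicate 1 was 0.710 in acupuncture and 0.466 in ICH, and for Lpl it was 0.677 and 0.855. Spp1 was level in both groups, with ratios of 0.948 in acupuncture and 1.02 in ICH. The labels do not say whether replicate numbers pair libraries across groups, and with 2 libraries a group these ratios are values without a test.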
